A study of Mus musculus with 6 samples.

Results

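Carriers of amino acids and their closest relatives were described in J1 mouse embryonic stem cells that had received an inhibitor of activin and nodal signalling for 24 hours. A gene was taken as a member when the accession of a non-control probe mapped to a mouse gene symbol of the families Slc1a, Slc3a, Slc6a, Slc7a, Slc36a, Slc38a or Slc43a. The rule used names alone, but the families were chosen with earlier results of these data known. It found 62 genes of 20667 named on the array, with 79 probes of 55681 that are not controls. Members with 1 probe numbered 48, members with 2 probes 11 and members with 3 probes 3. Slc7a6os met the rule by its name but encodes no carrier, and is counted with the others unless stated.

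RNA was hybridised to 6 one-colour Agilent arrays. The 3 SB431542 arrays held RNA of cells kept for 24 hours with 3 µM SB431542, a small molecule that blocks the kinase activity of the activin, nodal and TGF-beta type I receptors. The 3 DMSO arrays held RNA of cells kept for the same time with the solvent. Both groups were J1 cells (an established line of strain 129S4/SvJae), grown without feeder cells on gelatin in Knockout Serum Replacement with LIF, non-essential amino acids, 2 mM glutamine and β-mercaptoethanol. The labels do not say whether the 3 samples of a group were separate cultures, and p-values measure the spread between these samples only.

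Cells take up amino acids through membrane carriers that differ in substrate and in the ion that drives them. Slc1 carriers move glutamate or exchange small neutral amino acids, Slc6 carriers use sodium and chloride to move neurotransmitters and neutral amino acids, and Slc38 carriers move glutamine and other neutral amino acids with sodium. Many Slc7 proteins are light chains that reach the membrane only in a disulfide-linked pair with a heavy chain of Slc3, while the cationic amino acid carriers of Slc7 work alone. Slc36 carriers are driven by protons and act partly at lysosomes, and Slc43 proteins let large neutral amino acids or nucleobases pass down their gradient. Embryonic stem cells have a high demand for amino acids: mouse cells depend on threonine for one-carbon units, and glutamine feeds their citric acid cycle.

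All levels below are log2 signals relative to the 75th percentile of the same array, so 0 is the level of that percentile and a difference of 1 is a change of 2-fold. Levels of different probes were not compared with each other, since probes differ in brightness. A gene was tested with limma when its brightest probe passed the scanner's test for a signal well above background on 3 or more of the 6 arrays, and was called when the Benjamini-Hochberg adjusted p over all 25899 features tested was under 0.05. Changes are SB431542 minus DMSO, with their standard error (SE) and n = 3 arrays in each group. Arrays give no read depth, and their number limits the precision.

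Of the 62 members, 46 were tested. Under SB431542, 5 rose, 11 fell and 30 were not past the threshold, so that 34.8% of the tested members were called. The share called over all features tested was 12.5% (5.16% higher and 7.37% lower), and over features with a gene symbol 15.4%. The median log2 change was -0.0091 over the members and 0.020 over all features. Among 254 tested Slc genes outside these families, 26 rose and 18 fell, which is 17.3%. Since the members were chosen with earlier results known, these shares were not tested against each other. In 28 of the 46 tested members the 2 groups did not overlap, while 35.9% of all features had groups that did not overlap. A called change of at least 2-fold was seen in 6 members, 2 higher and 4 lower, where 1.56% of all features had one. They include Slc38a8 and, by its fitted value against a group at background, Slc6a14 among those that rose. Slc6a15, Slc7a7 and Slc38a5 are among those that fell.

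**Figure D1:**
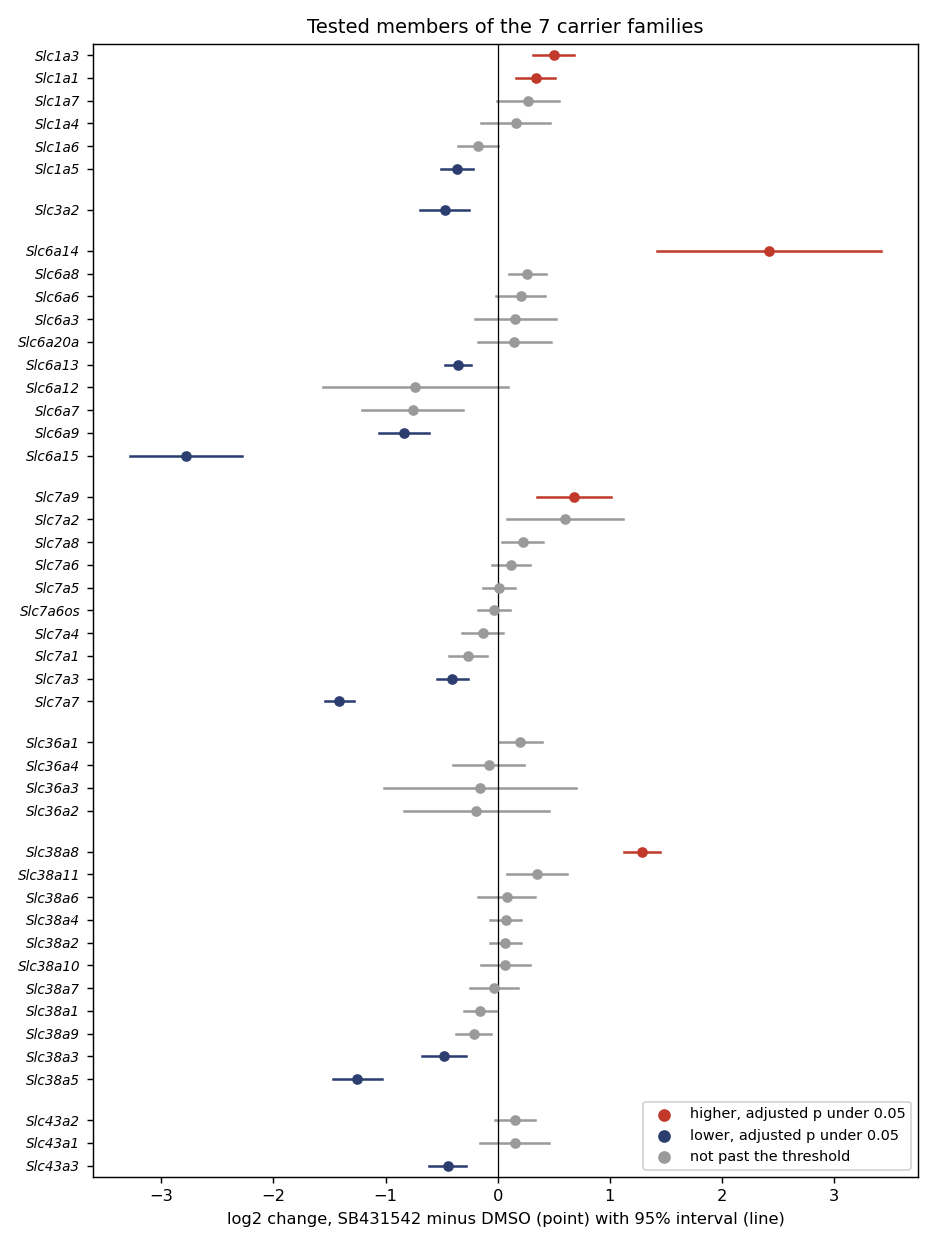
Log2 change (SB431542 minus DMSO, horizontal axis) of 45 tested members, grouped by family, with lines for the 95% confidence interval. Red marks are members that rose, blue marks members that fell and grey marks members not past an adjusted p of 0.05. Members that fell reach -2.78 (Slc6a15), the 5 that rose reach 2.42 (Slc6a14, a fitted value against a group at background), and no member of Slc36 was past the threshold.

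The 16 members not tested were too dim. For 13 of them no probe was well above background on any array: Slc1a2, Slc6a2, Slc6a4, Slc6a11, Slc6a17, Slc6a20b, Slc6a21, Slc7a10, Slc7a11, Slc7a12, Slc7a13, Slc7a14 and Slc7a15. This group holds carriers of monoamines, brain forms and Slc7a11, the cystine and glutamate exchanger of glutathione synthesis. The Slc7a11 probe gave -8.11, -7.90 and -7.87 on the SB431542 arrays and -8.07, -8.10 and -8.07 on the DMSO arrays, which bounds its signal and gives no direction. Slc3a1, the heavy chain partner of Slc7a9, was well above background on 1 SB431542 array, Slc6a18 on 1 DMSO array, and Slc6a19 on 1 array of each group. Of the tested members, 42 were well above background on all 6 arrays, and among these 4 rose and 11 fell. The other 4 were Slc36a2, Slc36a3, Slc6a12 and Slc6a14.

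Among the heavy and light chains, the strongest change was in Slc7a7. It encodes the y+L light chain, which exchanges cationic amino acids for neutral ones with sodium and whose loss in humans causes lysinuric protein intolerance. Its level was 3.63, 3.70 and 3.70 on the SB431542 arrays and 5.08, 5.06 and 5.13 on the DMSO arrays. Every SB431542 value lay more than 1 log2 unit below every DMSO value. The log2 change was -1.41 ± 0.05 (SE), a level 2.66-fold lower, with an adjusted p of 0.000192 in limma. The tested genes next to it in RefSeq gene order were not past the threshold, with log2 changes of 0.15 ± 0.05 for Oxa1l and -0.036 ± 0.05 for Mrpl52.

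Its partner Slc3a2, the heavy chain known as CD98, which carries most light chains to the cell surface and also binds integrins, fell less. It gave 5.48, 5.62 and 5.30 on the SB431542 arrays and 5.95, 5.93 and 5.92 on the DMSO arrays. The groups did not overlap, and the SB431542 arrays spread more widely than the DMSO arrays. The log2 change was -0.47 ± 0.09 (adjusted p = 0.0237, limma). Without SB431542 replicate 1 the adjusted p was 0.0613, and without DMSO replicates 1, 2 or 3 it was 0.0871, 0.0894 and 0.0845. With dim probes tested too it was 0.0525. The gene before Slc3a2 in RefSeq order, the muscarinic receptor gene Chrm1, fell by 2.27 ± 0.08, and the one after it, Wdr74, had -0.051 ± 0.10 and was not past the threshold.

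The light chain Slc7a9, which pairs with Slc3a1 in a carrier of cystine and cationic amino acids of kidney and gut, rose. It gave -2.75, -2.73 and -2.51 on the SB431542 arrays and -3.30, -3.59 and -3.14 on the DMSO arrays. All SB431542 values lay above all DMSO values, and the DMSO arrays spread more widely than the SB431542 arrays. The log2 change was 0.68 ± 0.13 (adjusted p = 0.0269, limma). The call was lost without most single arrays: its adjusted p was 0.0562, 0.0650 and 0.0644 without SB431542 replicates 1, 2 and 3, and without DMSO replicate 1 or 2 it was 0.0835 or 0.0588. With dim probes tested too it was 0.0580.

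Slc7a5, the LAT1 light chain that carries large neutral amino acids such as leucine, had 2.10, 2.11 and 2.22 on the SB431542 arrays and 2.18, 2.11 and 2.10 on the DMSO arrays. The groups overlapped, and the log2 change of 0.01 ± 0.06 had a 95% confidence interval of -0.13 to 0.16 (adjusted p = 0.909, limma). A dimmer probe of the same transcript fell, with values given after the families. The other tested light chains, Slc7a6 at 0.12 and Slc7a8 at 0.22, were not past the threshold.

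Promoter windows are shown for Slc7a7 and Slc3a2, which fell, and for Slc38a8, which rose. Slc1a4, not past the threshold, was added because its window holds the letters TGATGNAA. This is the core of the composite element through which ATF4 and its C/EBP partners act on genes of the amino acid response. The windows run from 250 bases before to 50 bases after a transcription start in RefSeq's annotation of GRCm38.p6, all on the minus strand, printed 5′ to 3′ with matches on either strand in capitals. They lie at chr14:54417895-54418194 (Slc7a7), chr19:8713848-8714147 (Slc3a2), chr11:20332664-20332963 (Slc1a4) and chr8:119501649-119501948 (Slc38a8).
Slc7a7: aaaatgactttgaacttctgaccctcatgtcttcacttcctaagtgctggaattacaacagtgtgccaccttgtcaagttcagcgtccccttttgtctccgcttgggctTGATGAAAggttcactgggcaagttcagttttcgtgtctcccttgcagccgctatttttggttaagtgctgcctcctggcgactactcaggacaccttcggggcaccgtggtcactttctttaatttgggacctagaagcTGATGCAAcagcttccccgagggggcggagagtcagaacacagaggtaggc
Slc3a2: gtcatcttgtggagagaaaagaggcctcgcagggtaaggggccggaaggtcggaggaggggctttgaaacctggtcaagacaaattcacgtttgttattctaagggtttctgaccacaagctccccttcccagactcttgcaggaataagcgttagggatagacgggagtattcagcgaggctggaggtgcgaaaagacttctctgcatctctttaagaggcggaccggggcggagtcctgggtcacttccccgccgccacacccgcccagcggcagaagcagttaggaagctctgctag
Slc1a4: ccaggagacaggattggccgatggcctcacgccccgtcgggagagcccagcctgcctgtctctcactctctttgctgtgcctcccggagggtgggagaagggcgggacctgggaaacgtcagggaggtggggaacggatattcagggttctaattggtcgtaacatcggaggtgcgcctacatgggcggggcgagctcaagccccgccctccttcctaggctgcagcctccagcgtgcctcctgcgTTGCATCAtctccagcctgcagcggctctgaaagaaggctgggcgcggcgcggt
Slc38a8: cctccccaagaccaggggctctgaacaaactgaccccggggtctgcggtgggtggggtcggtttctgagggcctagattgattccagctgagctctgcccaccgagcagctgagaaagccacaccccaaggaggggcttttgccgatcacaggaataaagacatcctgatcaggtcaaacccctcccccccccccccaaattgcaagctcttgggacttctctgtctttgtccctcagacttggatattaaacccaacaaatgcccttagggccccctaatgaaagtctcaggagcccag
The Slc7a7 window, 1 of 5 that RefSeq gives this gene, was printed because it holds the letters, at bases 110 and 250. Of 13 windows of members that fell, 2 held the letters, both of Slc7a7. The Slc1a4 window holds them on the opposite strand at base 247, and the windows of Slc3a2 and Slc38a8 do not hold them.

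Of the 62 members, 44 had at least 1 promoter window in the table. TGATGNAA was in a window of 1 of 5 members that fell (Slc7a7), 0 of 5 that rose and 1 of 22 not past the threshold (Slc1a4), while 4.51% of all 27025 genes with a window, and 3.97% of all 32851 windows, held it. Among 12 members with a window that were not tested, Slc6a21 and Slc7a11 held it. The letters TGACNNNGC, the core of the antioxidant response element, were in windows of 2 of 5 members that fell (Slc6a13 and Slc6a9), 0 of 5 that rose and 5 of 22 not past the threshold, against 14% of all genes and 12.4% of all windows. TGTGGATT, a form of the FoxH1 site of nodal targets that 1.01% of all genes and 0.855% of all windows held, was in no window of a member. Both strands were searched, and the 3 motifs are matches of letters only.

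The cationic amino acid carriers take up arginine and lysine. Slc7a3 (CAT3) had 5.23, 5.29 and 5.37 on the SB431542 arrays and 5.68, 5.70 and 5.72 on the DMSO arrays. It fell by 0.40 ± 0.06 on the log2 scale (adjusted p = 0.00895, limma), with a gap between the groups. Slc7a1 (CAT1), the general arginine carrier, had 4.05, 4.19 and 4.01 on the SB431542 arrays and 4.31, 4.41 and 4.32 on the DMSO arrays. Its groups did not overlap either, but its log2 change of -0.27 ± 0.07, with a 95% interval of -0.43 to -0.10, was not past the threshold (adjusted p = 0.0593, limma). It was past it after normexp background correction, after quantile normalization, on the authors' deposited log2 values and with a variance trend, at 0.0175, 0.0495, 0.0471 and 0.0144. Slc7a2, an inducible arginine carrier, had 0.60 ± 0.21 (adjusted p = 0.130) and Slc7a4 had -0.13.

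**Figure D2:**
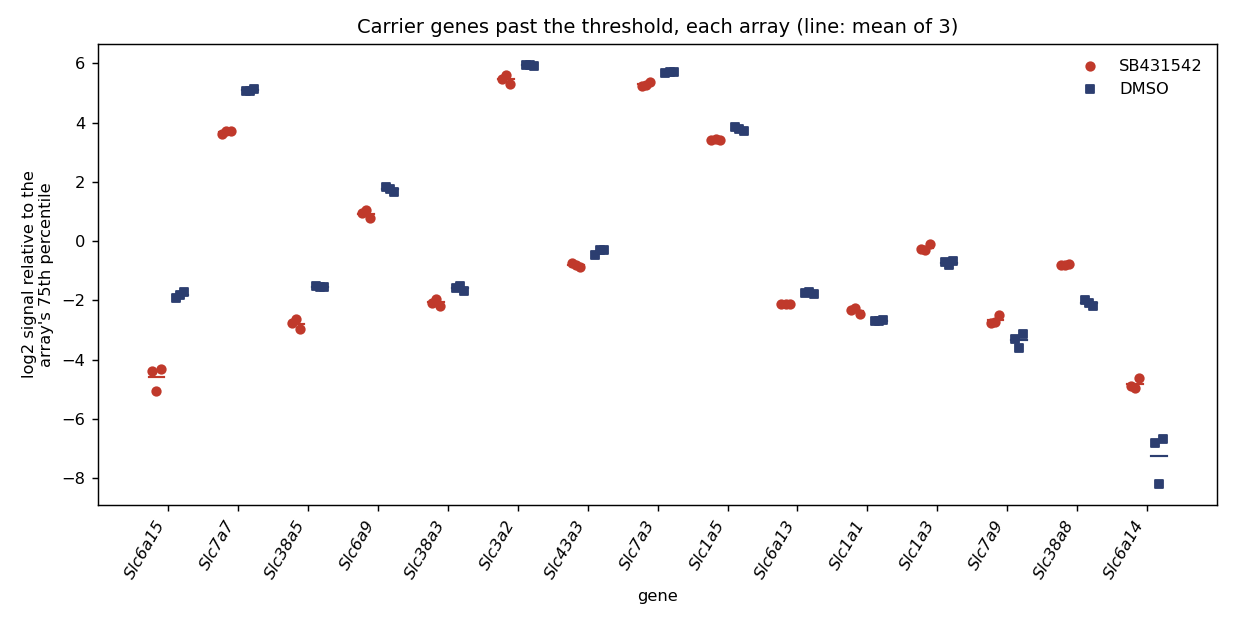
Level on each array (log2 signal relative to the array's 75th percentile, vertical axis) of 15 members past the threshold, SB431542 arrays left of DMSO arrays, with a short line at each group's mean. In each of the 15 the 3 SB431542 points lie apart from the 3 DMSO points, widely in Slc6a15 and Slc7a7 and narrowly in Slc1a1 and Slc1a5.

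The sodium-coupled carriers of Slc38 were all measured: 1 of 11 rose, 2 fell and 8 were not past the threshold (27.3% called, against 12.5% of all features). Slc38a8, a carrier of glutamine and other neutral and cationic amino acids described mainly in brain and eye, rose. Its level was -0.79, -0.82 and -0.76 on the SB431542 arrays and -1.99, -2.07 and -2.17 on the DMSO arrays. The groups were far apart, and the level was 2.44-fold higher (log2 change 1.29 ± 0.07, adjusted p = 0.000434, limma). The gene before it in RefSeq order, Necab2, also rose, by 0.44 ± 0.08, and Mbtps1 after it had 0.059 ± 0.05 and was not past the threshold.

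Slc38a5 and Slc38a3 are system N carriers, which exchange glutamine, asparagine and histidine against protons. Slc38a5 fell, with -2.77, -2.63 and -2.95 on the SB431542 arrays and -1.51, -1.56 and -1.53 on the DMSO arrays. The change was -1.25 ± 0.09 (adjusted p = 0.00105, limma). Slc38a3 had -2.08, -1.95 and -2.18 on the SB431542 arrays and -1.59, -1.51 and -1.68 on the DMSO arrays, a smaller step with no overlap. It fell by 0.48 ± 0.08 (adjusted p = 0.0164, limma), with an adjusted p of 0.0514 without SB431542 replicate 1 and of 0.0659 and 0.0709 without DMSO replicates 1 and 2.

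The system A carriers Slc38a1 and Slc38a2, which concentrate alanine, serine and glutamine in the cell, were not past the threshold. Slc38a2, whose mRNA rises on amino acid starvation in many cells, had a log2 change of 0.069 ± 0.06 with a 95% interval of -0.066 to 0.20 (adjusted p = 0.469, limma). Slc38a1 had -0.16 ± 0.06, with an interval of -0.30 to -0.013 (adjusted p = 0.151). Slc38a9, the lysosomal arginine sensor upstream of mTORC1, had -0.21 ± 0.06, with an interval of -0.37 to -0.057 (adjusted p = 0.0888). The other 5 carriers not past the threshold lay between -0.032 (Slc38a7) and 0.35 (Slc38a11). Slc38a1, Slc38a2 and Slc38a4 follow each other on chromosome 15, and none of them was past the threshold.

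In Slc6, 11 of 19 members were tested, of which 1 rose, 4 fell and 6 were not past the threshold (45.5% called, against 12.5% of all features). Slc6a15, a sodium-coupled carrier of branched-chain amino acids and proline, had the largest fall of any member. It gave -4.39, -5.07 and -4.33 on the SB431542 arrays and -1.92, -1.81 and -1.72 on the DMSO arrays. All 6 arrays were well above background, and the groups lay more than 2 log2 units apart. The change was -2.78 ± 0.20 (adjusted p = 0.00113, limma), so that the level in SB431542 was 0.146 times that in DMSO. With normexp background correction, the change was -1.29. Normexp here added an offset of 50 to every signal, which makes log2 changes of dim probes smaller.

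Slc6a14, a broad carrier of neutral and cationic amino acids, went the other way. It gave -4.90, -4.94 and -4.62 on the SB431542 arrays and -6.82, -8.20 and -6.69 on the DMSO arrays. The probe was well above background on all 3 SB431542 arrays and on no DMSO array, so it passed the filter only through the group where it was high. The fitted log2 change was 2.42 ± 0.41 (adjusted p = 0.0162, limma), and rests on DMSO values that were not well above background. Against the lowest measurable signal of the DMSO arrays, its level was at least 2.11-fold higher, a bound that was not itself tested. With normexp background correction and its offset of 50, the log2 change was 0.40, a smaller step than this bound. The adjusted p was 0.05001 without SB431542 replicate 2 and 0.0511 without SB431542 replicate 3, both just outside the threshold. The gene after it on the X chromosome, Klhl13, rose by 0.37 ± 0.06.

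Slc6 carriers also move GABA, betaine, taurine and creatine. Slc6a13 (GAT2), a carrier of GABA and taurine outside neurons, had -2.12, -2.11 and -2.11 on the SB431542 arrays and -1.75, -1.73 and -1.79 on the DMSO arrays. This is a small and even step of -0.36 ± 0.05 (adjusted p = 0.00768, limma).

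Slc6a12, Slc6a8 and Slc6a6 were not past the threshold. Slc6a12, the betaine carrier next to Slc6a13 on chromosome 6, had -0.73 ± 0.34 (adjusted p = 0.224, limma), and was well above background on 1 SB431542 array and all 3 DMSO arrays. Slc6a8, the creatine carrier, had 4.44, 4.43 and 4.34 on the SB431542 arrays and 4.24, 4.11 and 4.07 on the DMSO arrays, with no overlap. Its log2 change was 0.26 ± 0.07 (adjusted p = 0.0563, limma), and it was past the threshold with normexp, with median scaling, with a variance trend and when only probes measured on all 6 arrays were tested. The taurine carrier Slc6a6 had 0.21 (adjusted p = 0.199).

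The glycine carrier Slc6a9 (GlyT1) fell, with 0.95, 1.04 and 0.77 on the SB431542 arrays and 1.84, 1.76 and 1.66 on the DMSO arrays. The change was -0.83 ± 0.09 (adjusted p = 0.00416, limma). The proline carrier Slc6a7 had -4.76, -4.56 and -5.17 on the SB431542 arrays and -3.84, -4.15 and -4.24 on the DMSO arrays. Its groups did not overlap, and its change of -0.76 ± 0.18, with a 95% interval of -1.21 to -0.31, lay just outside the threshold (adjusted p = 0.0507, limma), and inside it with a variance trend or when only probes measured on all 6 arrays were tested. The imino acid carrier Slc6a20a and the dopamine carrier Slc6a3 were not past the threshold, at 0.15 and 0.16.

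Among the 5 glutamate carriers of Slc1, 4 were tested and 2 rose, where 12.5% of all features were called. Slc1a3 (GLAST), best known from glia, had -0.28, -0.29 and -0.11 on the SB431542 arrays and -0.69, -0.81 and -0.67 on the DMSO arrays. It rose by 0.50 ± 0.08 on the log2 scale (adjusted p = 0.0114, limma, and 0.0510 without DMSO replicate 2). Slc1a1, the glutamate, aspartate and cysteine carrier of neurons, kidney and gut, had -2.31, -2.27 and -2.48 on the SB431542 arrays and -2.71, -2.71 and -2.65 on the DMSO arrays. It rose by 0.34 ± 0.07 (adjusted p = 0.0328, limma), the narrowest gap among the called members that rose. Without SB431542 replicate 1 or 2, or any 1 of the 3 DMSO replicates, its adjusted p lay between 0.0850 and 0.122, and it was 0.0531 with normexp and 0.0698 with dim probes tested too. Slc1a6 at -0.18 and Slc1a7 at 0.27 were not past the threshold.

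Slc1a5 (ASCT2) exchanges glutamine and other small neutral amino acids. Its level was 3.41, 3.45 and 3.41 on the SB431542 arrays and 3.86, 3.79 and 3.71 on the DMSO arrays. It fell by 0.36 ± 0.06 (adjusted p = 0.0137, limma), with an adjusted p of 0.0548 and 0.0663 without DMSO replicates 1 and 2. Its relative Slc1a4 (ASCT1), an exchanger of alanine, serine, cysteine and threonine, had 0.16 ± 0.13 with a 95% interval of -0.15 to 0.47 (adjusted p = 0.460, limma).

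Of the 3 Slc43 genes, Slc43a3, described as a nucleobase carrier rather than an amino acid carrier, fell. It gave -0.74, -0.80 and -0.86 on the SB431542 arrays and -0.46, -0.31 and -0.31 on the DMSO arrays, a change of -0.44 ± 0.07 (adjusted p = 0.0115, limma). Leaving out DMSO replicate 2 or 3 gave an adjusted p of 0.0579 or 0.0564. The leucine and phenylalanine carriers Slc43a1 (LAT3) and Slc43a2 (LAT4) were not past the threshold, with 0.15 ± 0.13 (interval -0.16 to 0.46) and 0.16 ± 0.07 (interval -0.023 to 0.33). None of the 4 proton-coupled Slc36 genes was past it. Slc36a1, a lysosomal and gut carrier of proline, glycine and alanine, had 0.20 ± 0.08 with an interval of 0.0080 to 0.39 (adjusted p = 0.166, limma).

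Of the members, 7 were measured by more than 1 tested probe, with p-values adjusted over all probes tested. For Slc6a9 and Slc1a5 both probes fell, by 0.83 and 0.84 and by 0.36 and 0.39. For Slc7a5 they disagreed. The dimmer probe had -0.81, -1.02 and -1.10 on the SB431542 arrays and -0.64, -0.57 and -0.47 on the DMSO arrays, and fell by 0.42 ± 0.10 (adjusted p = 0.0473, limma), while the brighter one was not past the threshold. The mean of both Slc7a5 probes changed by -0.20 (adjusted p = 0.0609). Neither probe's position in its transcript is given in the files. The probes of Slc38a1, Slc38a9 and Slc36a1 were not past the threshold, and those of Slc38a1 and Slc38a9 had both signs.

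**Figure D3:**
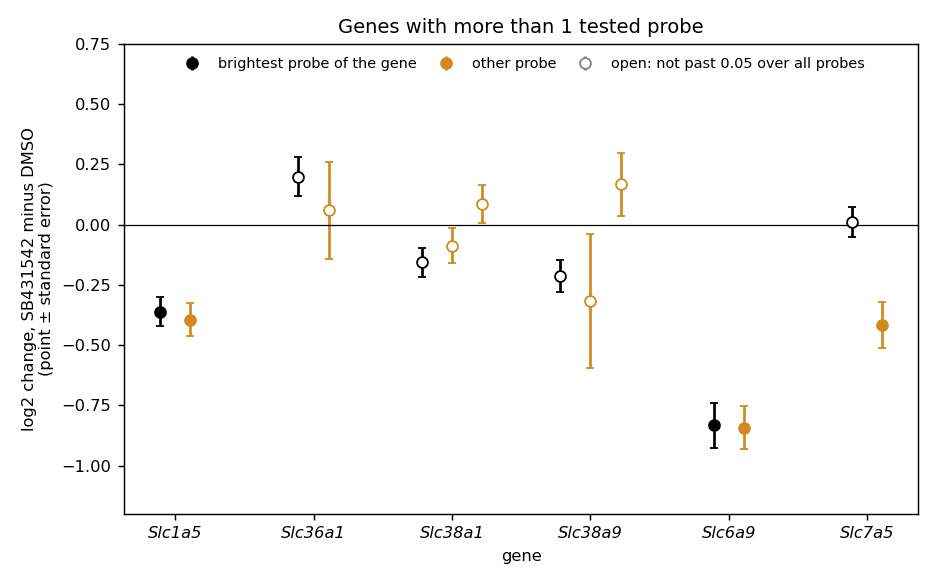
Log2 change (SB431542 minus DMSO) ± standard error (vertical axis) for each tested probe of 6 members with more than 1 tested probe, black for the brightest probe, orange for the others and open where not past the threshold. The probes of Slc6a9 and of Slc1a5 lie together, while those of Slc7a5 (0.01 and -0.42) lie apart.

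By gene order, 9 pairs of members are next to each other. In 6 of these pairs both genes were tested, and in no pair were both past the threshold. Of 22 tested protein-coding neighbours of the called members, 6 were past the threshold, where 12.5% of all features were. The 2 that rose were Necab2 and Klhl13, beside Slc38a8 and Slc6a14, which rose. Of the 4 that fell, Chrm1, Gnai2 (by 0.76 ± 0.07) and Tex11 (by 0.68 ± 0.06) lie beside Slc3a2, Slc38a3 and Slc7a3, which fell. Tdrd12, which fell by 0.36 ± 0.07, lies beside Slc7a9, which rose.

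Genes that act with the carriers were taken as lists. Of 19 tested genes of ATF4 and the amino acid response, 8 fell and 0 rose (42.1% called, median log2 change -0.18, against 12.5% and 0.020 over all features). The hormone genes Stc2 and Gdf15 fell by 1.15 ± 0.08 and 1.45 ± 0.09, the glutathione-degrading enzyme Chac1 by 1.58 ± 0.11 and the transcription factor Atf3 by 2.00 ± 0.15, with adjusted p of 0.000985, 0.000695, 0.000957 and 0.00129 (limma). Chosen after their values were seen, Atf4 itself fell by 0.42 ± 0.06 (adjusted p = 0.0122), while Asns, the asparagine synthetase that this response induces, had -0.14 ± 0.07 and was not past the threshold (adjusted p = 0.255).

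**Figure D4:**
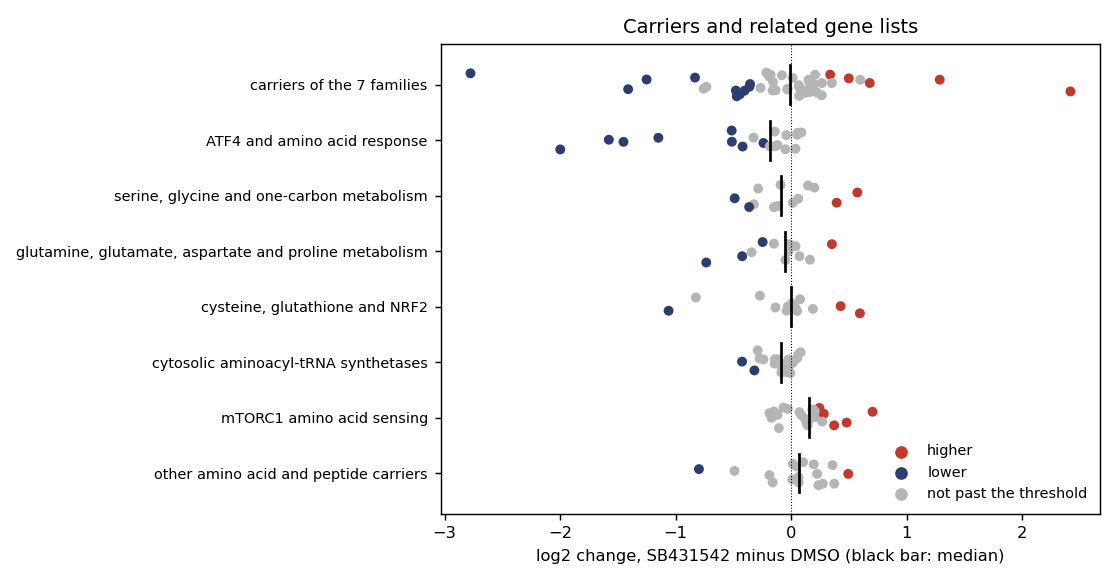
Log2 change (SB431542 minus DMSO) of tested genes of the related lists and of the members, 1 point a gene, red for higher, blue for lower and grey for not past the threshold, with a black bar at each list's median. The ATF4 list has its 8 called genes below 0, and the mTORC1 sensing list has its 5 called genes above 0. Called were 42.1% of the first list and 19.2% of the second, against 12.5% of all features.

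Among 13 genes of glutamine, glutamate, aspartate and proline metabolism, 1 rose and 4 fell (38.5% called, median -0.049, against 12.5% and 0.020 over all features). The transaminase Gpt2 fell by 0.73 ± 0.10 and the proline synthesis gene Aldh18a1 by 0.42 ± 0.06, and the glutaminase Gls2 rose by 0.35 ± 0.05.

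Of 14 genes of cysteine, glutathione and NRF2, 2 rose and 1 fell (21.4% called, median 0.0012, against 12.5% and 0.020 over all features). Cth, which makes cysteine from cystathionine, had 2.68, 2.68 and 2.59 on the SB431542 arrays and 3.73, 3.72 and 3.70 on the DMSO arrays, and fell by 1.06 ± 0.05 (adjusted p = 0.000388, limma). The glutathione-cleaving enzyme Ggt1 rose by 0.60 ± 0.09 and the quinone reductase Nqo1 by 0.43 ± 0.05. Of 13 genes of serine, glycine and one-carbon metabolism, 2 rose and 2 fell (30.8% called, median -0.091, against the same 12.5% and 0.020). The threonine dehydrogenase Tdh rose by 0.57 ± 0.08 and the glycine decarboxylase Gldc by 0.39 ± 0.06, while the mitochondrial folate enzymes Mthfd2 and Shmt2 fell by 0.49 ± 0.10 and 0.36 ± 0.06.

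Amino acid sensing by mTORC1 had 5 genes of 26 that rose and 0 that fell (19.2% called, median 0.15, against 12.5% and 0.020 over all features). They included the Rag GTPases Rragd and Rragc, at 0.71 ± 0.09 and 0.28 ± 0.06, Sesn3 at 0.48 ± 0.07 and the mTOR partner Mlst8 at 0.37 ± 0.07. Of 19 cytosolic aminoacyl-tRNA synthetases, 0 rose and 2 fell, Nars by 0.42 ± 0.08 and Yars by 0.32 ± 0.06 (10.5% called, median -0.084). Of 17 other amino acid and peptide carriers, the peptide carrier Slc15a2 rose by 0.49 ± 0.08 and the aromatic amino acid carrier Slc16a10 fell by 0.80 ± 0.08 (11.8% called, median 0.066). Of features with a gene symbol, 15.4% were called. In none of these lists was the share called tested against that of other genes.

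On each array 63.9% to 66.2% of the non-control spots were well above background, and none was saturated. Arrays correlated at 0.995 to 0.997 within SB431542, 0.997 to 0.998 within DMSO and 0.991 to 0.994 between the groups, over all tested features. SB431542 replicate 3 was alone on the second of 2 slides. On the first slide alone, which held both groups, 4 members rose and 12 fell, with Slc6a14 and Slc7a9 no longer past the threshold and Slc7a2 (higher) and Slc6a12 (lower) past it. The nodal targets Lefty1, Lefty2 and Smad7, read as a check of the labels, fell, with log2 changes of -9.43 ± 0.20, -4.85 ± 0.10 and -4.60 ± 0.05. Lefty1 was well above background on only 2 of the 3 SB431542 arrays (-5.62, -4.91 and -4.94), so the size of its fall rests on signals near background. All 10 markers of embryonic stem cells were well above background on the 6 arrays. Their summed signal relative to the 75th percentile was 508.1 to 562.1 in SB431542 and 686.6 to 710.8 in DMSO, and 4 of them fell (Dppa5a, Tdgf1, Fgf4 and Utf1). Of 10 fibroblast markers 8 were tested, of which 1 rose and 3 fell (Col1a2, Pdgfrb and Dcn), and Postn and Lum were too dim to test. Dcn was well above background on 3 DMSO and 0 SB431542 arrays, so it passed the filter only through the group where it was high. The summed signal of the fibroblast markers was 2.09 to 2.28 in SB431542 and 2.52 to 2.68 in DMSO. The sums of both lists were lower in SB431542, but a sum mostly follows its brightest probes, here Dppa5a and Thy1. Dppa5a fell by 0.49 ± 0.07, while Thy1 had -0.07 ± 0.06 and was not past the threshold. Of the 10 stem cell markers, 0 rose past the threshold and 8 had a negative log2 change, while the called fibroblast markers went both ways. Dppa5a, the brightest of the stem cell probes, averaged 8.09 in SB431542 and 8.58 in DMSO, Sox2 and Zfp42 had log2 changes of 0.03 and 0.12 and were not past the threshold, and the fibroblast marker that rose was Pdgfra. The part of these markers in the carriers' changes was not tested. In bulk RNA, fewer cells of a type and less RNA per cell cannot be told apart.

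**Figure D5:**
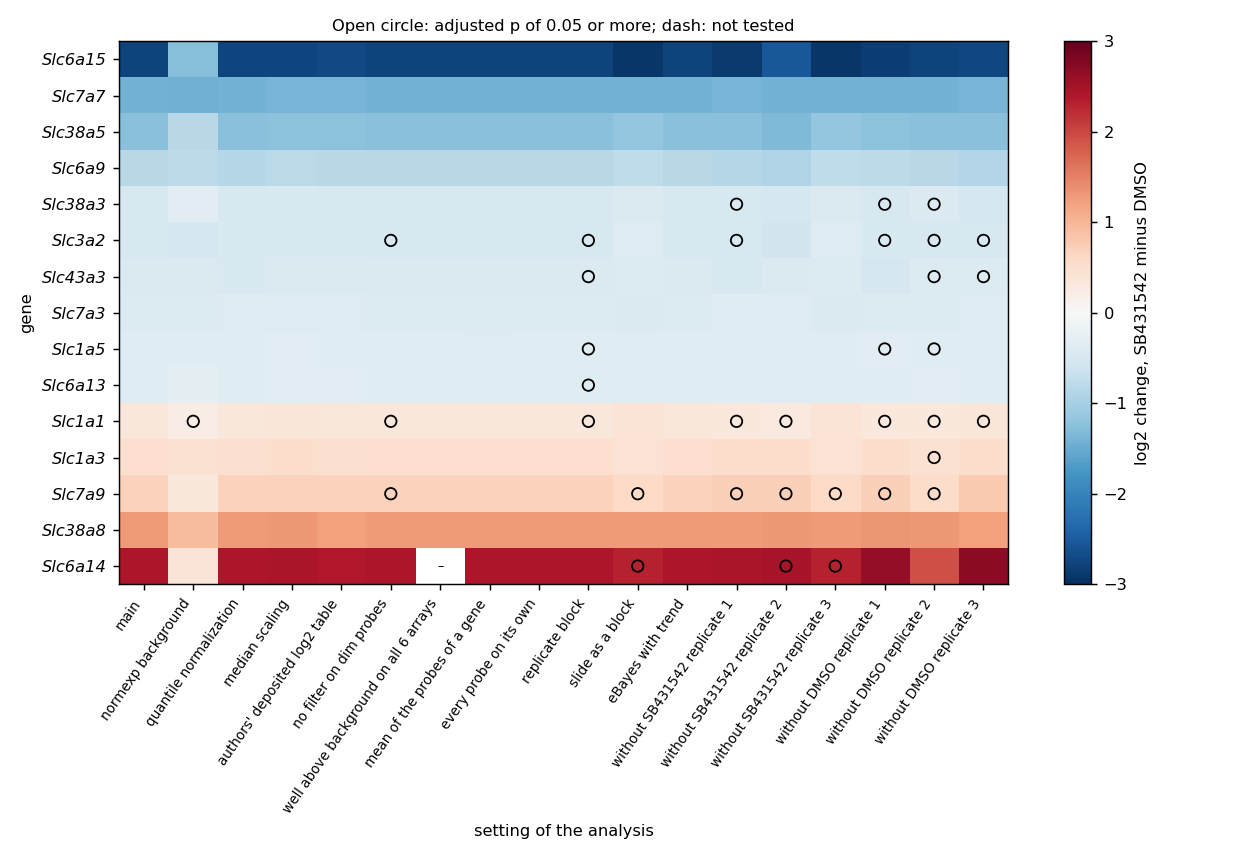
Log2 change (SB431542 minus DMSO, colour from blue for lower to red for higher) of 15 called members (rows) under the main and each alternative setting at the 0.05 threshold (columns), with an open circle where the adjusted p was 0.05 or more and a dash where the gene was not tested. The colours keep their side of 0 in every row, and circles gather in Slc1a1, Slc7a9 and Slc3a2.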

How the data were processed

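RNA of 3 SB431542 and 3 DMSO samples was measured on one-colour Agilent arrays, read with Feature Extraction 10.7 per the submitters' processing notes. The deposited files hold each spot's processed intensity, which per the file headers had its background subtracted, and scores that flag spots well above background, saturated or outlying. The authors' deposited log2 table was an alternative. Its columns share a median of 5.18, match their own arrays at r of 0.99988 or more, and no source used here gives their scaling.

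From the log2 processed intensities the 75th percentile of their own array was subtracted, taken over probes that are not controls, after spots flagged as outlying were removed and spots of a probe averaged. Of 55681 such probes, 81 with no usable spot on some array were left out. Accessions named 27235 of the 55681 through RefSeq's table (GRCm38.p6), 13 carried a name in the files and 28433 had none. The brightest probe stood for a gene, and probes well above background on at least 3 arrays were tested with limma 3.58.1 (R 4.3.3, lmFit and eBayes). The fit was tested on simulated data with 50 features changed at each of 4 sizes. It recovered 2%, 36%, 76% and 94% of log2 changes of 0.25, 0.5, 1 and 2, with 9 false calls. The simulation changed far fewer features than the 3246 called in the data. Its adjusted p was therefore harder to pass, and these rates do not measure the power of the real comparison. No unused columns of other samples were present. The grid of the arrays refers to the build mm9, so promoter coordinates come from RefSeq alone.

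A called gene that no DMSO array measured above background is given as a lower bound, against the lowest signal measurable there. Named are called members, a set of main carriers whatever their result, and up to 4 called genes of each related list, except that some genes counted are not reported here. Members and lists were chosen with earlier results of these data known. Alternatives changed background correction, normalization, filter, probe summary, variance trend, slide and replicate blocks, and left out each array. Normexp was run on the median spot and background signals, with an offset of 50 added to every signal before the log2. An added constant makes log2 changes of dim probes smaller.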

Additional observations from a re-analysis of the deposited data

How the results depend on the processing

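The main setting called 5 members higher and 11 lower. Testing dim probes too gave 3 higher, and an adjusted p under 0.01 gave 1 higher and 7 lower. Leaving out each array gave 2 to 4 higher and 7 to 12 lower. With replicate numbers as a block, 4 were higher and 7 lower, and Slc1a1, Slc1a5, Slc3a2, Slc43a3 and Slc6a13 had adjusted p of 0.106, 0.0628, 0.0641, 0.0657 and 0.0529. Same-numbered samples did not deviate together (r of 0.0018, 0.072 and -0.058). Deviations from means of 3 arrays cannot decide whether the numbers pair the samples, and the labels do not say. Slc7a5, not past the threshold, changed sign to -0.0056 (quantile), -0.0063 (authors' values), -0.20 (mean of probes), -0.026 (slide block and without SB431542 replicate 3) and -0.0015 (without DMSO replicate 3), with -0.026 to 0.038 over the settings that leave out an array. The 16 called members kept their sign in every alternative that tested them, and 7 of them, among which Slc6a15, Slc7a7, Slc38a5, Slc6a9, Slc7a3 and Slc38a8, stayed past the 0.05 threshold in all 17 alternatives that use it, of which the slide block and the fit without SB431542 replicate 3 are the same fit. With normexp and its offset of 50, Slc38a5, Slc6a14, Slc6a15 and Slc7a9 were at -0.82, 0.40, -1.29 and 0.33. Such an offset by itself makes log2 changes of dim probes smaller, and its share in these values was not tested. Members not called in the main setting were past the threshold in some: Slc7a1 in 4, Slc6a8 in 4, Slc6a7 in 2, Slc7a2 and Slc6a12 on the first slide alone, and Slc6a6, Slc7a5 (its dimmer probe), Slc38a9 and Slc38a11 in 1 each. Over all features, 1337 were higher and 1909 lower. The block gave 542 and 1023, no filter 787 and 1305, an adjusted p under 0.01 gave 428 and 790, and leaving out each array 535 to 1244 and 921 to 1682. Over all alternatives, genes lower were 5 to 10 in the ATF4 list (8 in the main setting), 2 to 5 for glutamine and proline (4), 0 to 4 for one-carbon metabolism (2) and 0 to 5 for synthetases (2). Genes higher were 1 to 8 for mTORC1 sensing (5), 1 to 3 for one-carbon metabolism (2), 1 to 3 for glutathione (2), 0 to 1 for glutamine and proline (1) and 0 to 6 for other carriers (1). Dim signal limits 16 members not tested and Slc6a14.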
